A study of Mus musculus with 2 samples.

Results

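The genes described are 9 that act at the double-negative (DN, CD4-CD8-) stage of T cell development: the receptors Notch1 and Notch3, the nuclear effector Rbpj, the Notch target and feedback genes Hes1, Dtx1 and Nrarp, the pre-T cell receptor chain Ptcra, and the progenitor surface receptors Kit and Cd44. They were listed by name, with earlier results of these data known, and they are 9 of 23296 genes with a symbol in the data. Whole thymus of wild-type (WT) Balb/c mice was compared with that of miR-146a transgenic (Tg) mice on the same strain, both 5 to 6 weeks old. Each genotype gave 1 RNA library from pooled thymuses of 1 male and 1 female mouse, so no test between genotypes was possible and every ratio compares these libraries. The transgene is described as systemically expressed, and the promoter that drives it is not given in the sources used here. The WT mice descend from purchased animals and the Tg line from another laboratory, so that line and transgene cannot be told apart, although all mice were bred in the same facility.

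Notch receptors are activated by ligands on neighbouring cells. Cleavage by an ADAM protease and then by γ-secretase frees the intracellular domain, which enters the nucleus, binds RBPJ and turns on target genes. In the thymus this signal commits progenitors to the T lineage and carries them through the DN stages. Progenitors marked by KIT and CD44 lose both as they commit, and cells that have rearranged a TCR β chain pair it with the pre-TCR α chain encoded by Ptcra. The pre-TCR signal then drives a burst of division and the passage to the double-positive (DP) stage, after which Notch activity is low.

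Levels are given in RPKM, a read count scaled to transcript length and to library depth, and each gene is represented by its most abundant transcript (highest average of WT and Tg). The WT values rest on 14522669 fragments and the Tg values on 15396696. Each ratio divides the Tg value by the WT value. The 95% intervals are exact binomial intervals on the recovered fragments and cover counting error only, not differences between animals. A gene counts as measured if its 2-library average is at least 1 RPKM, which 8 of the 9 genes reached (Kit did not), and as higher or lower past 1.5-fold. The levels ran from 0.516 RPKM for Kit in the Tg library to 21.0 RPKM for Notch1 in the same library. By mean level Notch1 was at percentile 62.9 of all measured genes and Ptcra at 55.9, while the other 6 measured genes lay between percentiles 7.06 and 33.1. The 11 markers of DP thymocytes ran in WT thymus from 22.8 RPKM for Aqp11 to 945 RPKM for Cd8b1, a chain of the CD8 co-receptor.

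Notch3 and Ptcra were past 1.5-fold higher in Tg thymus, Notch1 lay just under that limit, and Hes1, Dtx1 and Nrarp had ratios under 1 (Nrarp above 1 with both libraries at the same RPKM sum). Notch3 and Ptcra are themselves known to respond to Notch, so the genes that Notch regulates did not share one direction. Of the 8 measured genes, 2 were over 1.5-fold higher (Notch3 and Ptcra), 2 were over 1.5-fold lower (Dtx1 and Cd44) and 4 lay between. Among all 11095 measured genes of the thymus, 7.74% were over 1.5-fold higher and 11.0% over 1.5-fold lower. None of the 8 reached a 2-fold difference, against 2.79% of all measured genes higher and 3.84% lower at that limit. The median log2(Tg/WT) of the 8 genes was 0.06 and that of all 11095 genes 0.03. With both libraries rescaled to the same RPKM sum, the median of all genes moved up by 0.12 and the calls over all genes turned from 859 higher and 1219 lower to 1313 higher and 880 lower. RNA of whole tissue cannot tell fewer cells of a type from less RNA per cell.

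**Figure D1:**
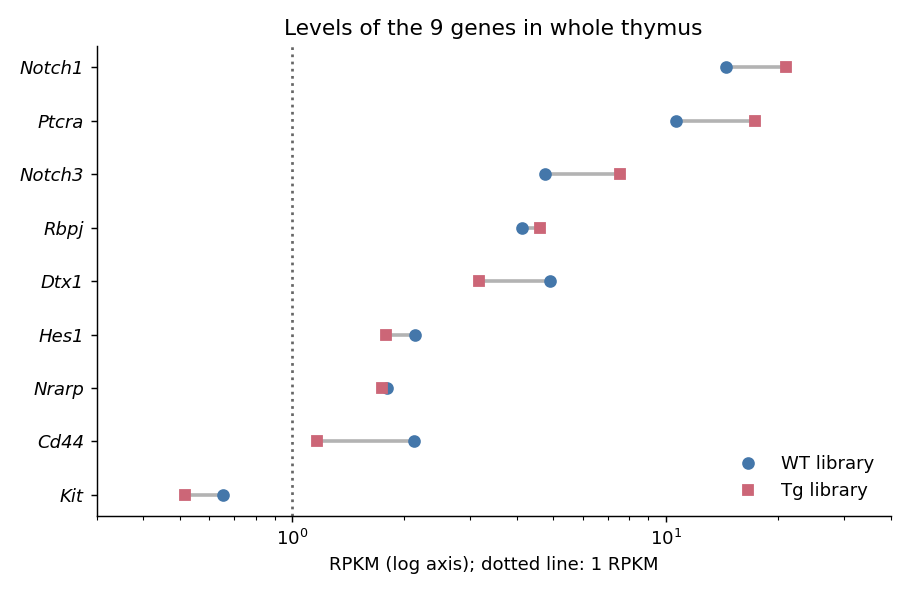
RPKM (log axis) of the 9 genes in the WT library (blue circles) and the Tg library (red squares), 1 library each, ordered by mean level. Notch1, Ptcra and Notch3 sit to the right in the Tg library, while Dtx1 and Cd44 sit to the left.

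Notch1, the receptor required for T lineage commitment, lies on chromosome 2 of GRCm38 from 26457902 to 26503822 on the minus strand. Its level was 14.5 RPKM in WT thymus against 21.0 RPKM in Tg thymus. The ratio was 1.45 (95% interval 1.37 to 1.53) on 1995 and 3062 fragments. Notch1 therefore lay just under the 1.5-fold limit, with an interval that crossed it. Its ratio was at percentile 90.9 among the ratios of all measured genes.

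Notch3, a receptor whose expression is itself raised by Notch signals in DN cells, lies on chromosome 17 (32120820 to 32166896). Its level rested on 549 WT and 926 Tg fragments and was 4.76 RPKM in WT against 7.57 RPKM in Tg thymus. That ratio, 1.59 (1.43 to 1.77), was at percentile 94.0. The receptors kept nearly the same proportion to each other. Notch3 was at 32.9% of the Notch1 level in WT thymus against 36.1% in Tg thymus, a change of 1.10 with an interval from 0.973 to 1.24 (exact conditional interval on fragments, which does not depend on how the libraries are scaled). Notch2, the third receptor measured, differed less, with 4.20 RPKM in WT and 4.97 RPKM in Tg (ratio 1.18, 1.07 to 1.31).

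Because the transgene expresses miR-146a, the annotated 3′ UTRs of the 9 genes were searched for matches to its seed, which are the 8 bases AGTTCTCA or its 7-base parts AGTTCTC and GTTCTCA. Of 10227 annotated 3′ UTRs, taken from the most abundant transcript of each measured gene, 18.0% held such a match. The sets of similar length given below were drawn from these. The sequences are shown because they give the letters that a search for direct targets starts from. The first line is the mature miRNA (RefSeq, GRCm38.p6, chr11:43374435-43374456, minus strand) with the seed, bases 2 to 8, in capitals. The other lines give the 30-base stretch around each match found in GENCODE M21 transcripts, with the match in capitals.
miR-146a-5p: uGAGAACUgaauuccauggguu
Notch1: gaaaataaactAGTTCTCAgagccttgatt
Rbpj: taactgagtctGTTCTCAgaatctgttggt
The Notch1 match has all 8 bases, AGTTCTCA, which pair with the seed and place an A opposite base 1 of the miRNA. It lies at bases 261 to 268 of a 3′ UTR of 1628 bases, on chromosome 2 from 26459263 to 26459270. Of 1590 annotated 3′ UTRs of similar length (1303 to 2035 bases), 4.84% held the 8-base match and 21.6% held a match of 7 or 8 bases. Notch1 was higher, not lower, in Tg thymus, as given above. The other 7 genes held no match, but the annotated 3′ UTRs of the Cd44 transcripts run from only 3 bases to 2992 bases. A match describes letters and not a used site, and these polyadenylated libraries do not show the mature miRNA. Annotated transcripts on the opposite strand overlap the end of Notch1 (0610009E02Rik and Gm13568) and part of Notch3 (Gm17276), and without a strand setting their reads cannot be told apart from those of the receptors.

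Rbpj, the DNA-binding partner of the Notch intracellular domain, lies on chromosome 5 (53555779 to 53657445). WT and Tg thymus held 4.13 and 4.62 RPKM, and the interval of the ratio, 1.12, included 1 (0.967 to 1.30). All 4 of its transcripts gave ratios near 1, from 0.989 to 1.12, and summed over them the ratio was 1.05. Its match to miR-146a has 7 bases, at bases 726 to 732 of a 3′ UTR of 3742 bases, and of 883 3′ UTRs of similar length (2995 to 4672 bases) 46.5% held a match of 7 or 8 bases. Relative to Notch1, Rbpj was at 28.5% in WT against 22.1% in Tg thymus, a change of 0.774 (0.660 to 0.908). Rbpj has processed pseudogenes, and their part in its reads was not tested.

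Hes1, Dtx1 and Nrarp are switched on by Notch signals in early T cells, and none of them was over 1.5-fold higher in Tg thymus under any scaling tried (with both libraries at the same RPKM sum, Nrarp turned to a ratio of 1.06). Dtx1 encodes an E3 ubiquitin ligase that modulates Notch and lies on chromosome 5 (120680203 to 120711867). With 265 WT and 181 Tg fragments, Dtx1 was at 4.91 RPKM in WT thymus and 1.55-fold lower, at 3.16 RPKM, in Tg thymus (interval of the ratio 0.530 to 0.781). That ratio was at percentile 9.66 of all genes. Dtx1 was not past 1.5-fold with both libraries at the same RPKM sum (1.43-fold lower) or with a pseudocount of 1 RPKM (1.42-fold lower). Dtx1 was level with Notch3 in WT thymus, at 103% of the Notch3 level, and at 41.8% of it in Tg thymus. Relative to Notch1 it went from 33.9% to 15.1%, a change of 0.445 (0.363 to 0.544).

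Hes1, a transcriptional repressor on chromosome 16 (30065357 to 30067796), was measured at 2.14 RPKM (WT) and 1.79 RPKM (Tg), giving a ratio of 0.838. Only 45 and 40 fragments lay behind these values, and the interval ran from 0.534 to 1.31. Nrarp, a small ankyrin-repeat protein that dampens Notch transcription complexes, lies on chromosome 2 (25180758 to 25183339). Its 67 WT and 69 Tg fragments gave 1.79 and 1.74 RPKM, and the ratio was 0.971 (0.684 to 1.38). A ratio as high as that of Notch1 lies above both intervals, while a ratio as far below 1 lies inside them. Set against Notch1 in the same library, Hes1 went from 14.8% to 8.54% (change 0.579, 0.367 to 0.911) and Nrarp from 12.4% to 8.30% (change 0.671, 0.470 to 0.958). These pairs were chosen after the ratios were seen, and since the intervals of Hes1 and Nrarp on their own include 1, their values against Notch1 largely restate the Notch1 ratio. An annotated antisense transcript (Gm38287) overlaps Nrarp from 25180781 to 25183339.

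**Figure D2:**
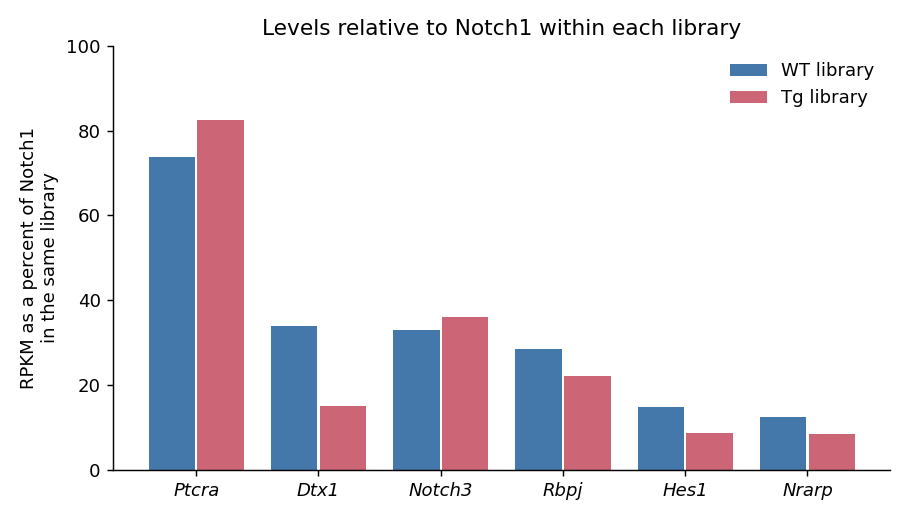
RPKM of 6 of the genes as a percent of the Notch1 RPKM in the same library (blue, WT; red, Tg; 1 library each). Ptcra (73.8% in WT, 82.6% in Tg; change 1.12, 0.929 to 1.35) and Notch3 (32.9% and 36.1%) differ by changes whose intervals include 1, whereas Dtx1 goes from 33.9% to 15.1%, and Hes1 and Nrarp are also at a smaller share.

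Ptcra encodes the pre-TCR α chain, the partner of a newly rearranged β chain, and lies on chromosome 17 (46755663 to 46763712). WT thymus held 10.7 RPKM of Ptcra and Tg thymus 17.3 RPKM. The ratio of 1.62 (1.36 to 1.94), on 199 and 342 fragments, was the highest of the 9 genes and at percentile 94.5 of all genes. Ptcra and Notch3 kept their proportion, with Notch3 at 44.6% (WT) and 43.7% (Tg) of the Ptcra level. The CD3 chain gene Cd3e, whose protein is part of both the pre-TCR and the mature receptor, had a ratio of 1.08 (1.04 to 1.11). The genes of the other chains, Cd3g, Cd3d and Cd247, had ratios of 0.677, 0.766 and 0.882, each with an interval under 1. Ptcra was at 3.89% of the Cd3e level in WT against 5.86% in Tg thymus, a change of 1.51 (1.26 to 1.81). A long noncoding transcript (Gm26904) spans the Ptcra locus on the opposite strand.

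Ptcra is a known target of both Notch and the E proteins, so its promoter (250 bases before to 50 after the start, RefSeq, GRCm38.p6) was searched on both strands for the RBPJ core TGGGAA and for the E-box CAGCTG. These stretches are shown because they hold such letters close to the start of the gene with the highest ratio. The first is chr17:46763783-46763812 and the second chr17:46763747-46763776, both on the minus strand, with the motifs in capitals.
Ptcra RBPJ core: cctccccagaaagcacTGGGAActaggggg
Ptcra E-boxes: agagCAGCTGgggtaCAGCTGggtctgtga
In all, this window held 2 RBPJ cores, which begin 84 and 32 bases before the start, and 3 CAGCTG E-boxes. Of 27025 promoters, 3.84% held 2 or more RBPJ cores and 0.174% held 3 or more CAGCTG E-boxes. Promoters were at hand for 8 of the 9 genes, all but Hes1, so the Hes1 promoter was not searched. Of these, 3 (Ptcra, Rbpj and Cd44) held an RBPJ core, each of them 2, where 25.5% of all promoters held at least 1. The Rbpj window (53590096 to 53590395) lies inside the gene, past its first base at 53555779, and so describes a later start. The windows of Dtx1 and Nrarp held no RBPJ core, and of the 3 genes with cores, Ptcra was past 1.5-fold higher, Cd44 past 1.5-fold lower and Rbpj between. A match is not evidence of binding, and regulatory sequence outside the window was not searched.

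Kit, the receptor for stem cell factor on the earliest thymic progenitors, lies on chromosome 5 (75574987 to 75656722) and was the least abundant of the genes. Its 49 fragments in WT and 41 in Tg thymus gave 0.653 and 0.516 RPKM. The ratio was 0.789, with an interval from 0.508 to 1.22. Its other transcript gave 0.743 (0.469 to 1.17). No difference in Kit was detectable at this depth. Mast cells also carry Kit, and Cpa3, the mast cell gene that was measured, was at 6.49 RPKM in WT against 2.23 RPKM in Tg thymus. The mast cell list summed to 9.78 and 3.55 RPKM, and 8 of its 9 genes were under 1 RPKM. Tpsb2 and Fcer1a had no fragments in the Tg library, but only 5 and 4 in the WT library. Of the genes under 1 RPKM, only Mcpt4 had an interval that left out 1 (14 and 2 fragments, ratio 0.135, 0.0149 to 0.587). The part of mast cells in the Kit values was not tested.

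Cd44, an adhesion receptor for hyaluronan, lies on chromosome 2 (102811141 to 102901669). It marks early progenitors and, later, effector and memory T cells. The transcript with the highest mean, NM_001039151, was at 2.12 RPKM in WT thymus and 1.83-fold lower, at 1.16 RPKM, in Tg thymus (interval of the ratio 0.410 to 0.728; 136 and 79 fragments). The Cd44 transcripts did not share one ratio. Of 6 listed, 2 were over 1.5-fold lower (NM_001039151 and NM_001039150, ratio 0.626), the others lay between 0.821 and 1.01, and none was higher. Summed over all 6 transcripts, Cd44 reached 9.21 RPKM in WT and 7.01 RPKM in Tg thymus, and this ratio, 0.761, is within 1.5-fold. The call for Cd44 therefore rests on which of its overlapping transcripts is taken. For 5 of the 6, the length implied by the reads was more than 20% from the GENCODE length (4408 against 2848 bases for NM_001039151). How reads shared by overlapping transcripts were assigned is not given in the sources used here.

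**Figure D3:**
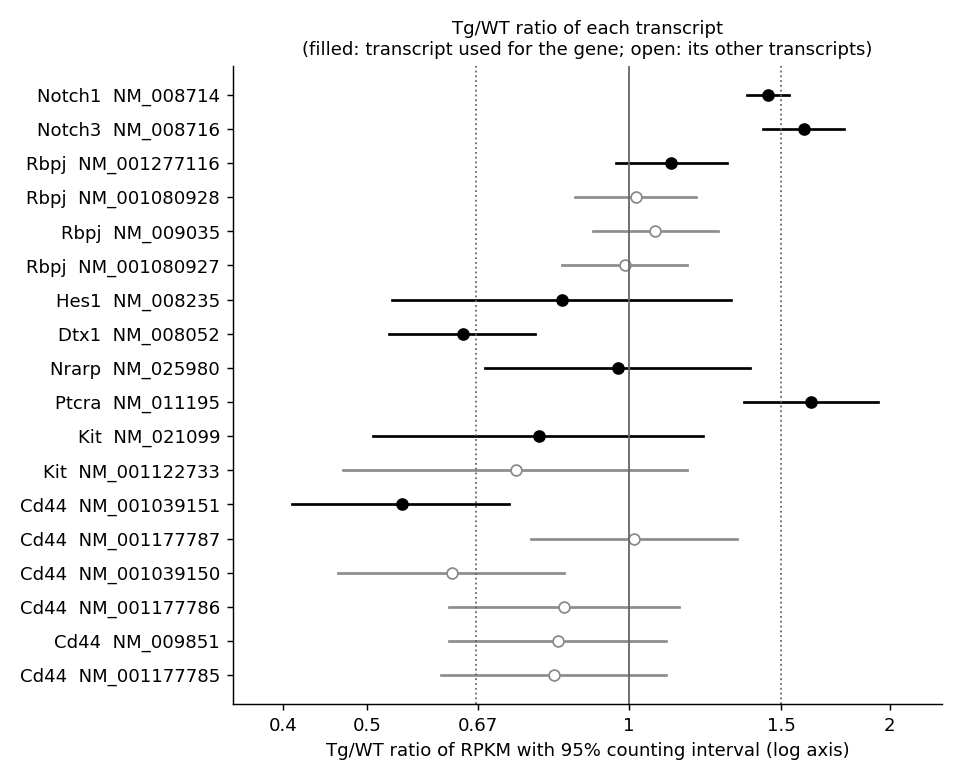
Tg/WT ratio of RPKM (log axis) for each of the 18 transcripts of the 9 genes, with 95% counting intervals; filled points are the transcripts used for the gene, open points its others, and dotted lines mark 1.5-fold. Notch1, Notch3 and Ptcra lie above 1, Dtx1 below it, and the Cd44 transcripts spread from 0.548 to 1.01.

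Cd44 is also a gene of mature and effector T cells, and their markers were lower in the Tg library. Of 5 other measured genes of an effector and memory T cell list, 4 were over 1.5-fold lower, and the whole list, Cd44 included, summed to 66.8 RPKM (WT) and 33.7 RPKM (Tg). The T-box factor Eomes, for example, was at 5.54 and 0.857 RPKM, and the cytokine receptor chain Il2rb at 27.9 and 10.5 RPKM. Of 10 genes of mature single-positive thymocytes 9 were lower, with sums of 1149 and 465 RPKM. Blood and myeloid markers, whose cells can also carry CD44, were lower too, with 7 of 9 neutrophil and monocyte genes past 1.5-fold (sums of 612 and 181 RPKM) and all 5 measured erythroid genes (201 and 108 RPKM). Other genes of the earliest progenitors were mostly too low to read. Of 20 genes of early thymic progenitors and DN2 cells, 13 were under 1 RPKM, and of the 6 others measured beside Cd44, Ly6a and Tyrobp were over 1.5-fold lower and 4 lay between. The chemokine receptor Ccr9, the most abundant, stood at 126 and 145 RPKM. The part of mature T cells and of myeloid and blood cells in the Cd44 values was not tested.

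Most of the other measured Notch pathway genes lay within 1.5-fold, with Lfng, Hes5 and Il7r, described next, as exceptions. Among ligands, Jag2 was the 1 of 6 that was measured, at 1.61 RPKM in WT and 2.0 RPKM in Tg (ratio 1.24, 0.943 to 1.64). Dll4, the Notch ligand of thymic epithelium, had 3 WT fragments and 1 Tg fragment, so nothing can be read from it. Jag1, another ligand, was under 1 RPKM, with 37 WT and 12 Tg fragments (ratio 0.306, 0.145 to 0.60). All 8 measured genes of receptor cleavage lay within 1.5-fold, among them Psenen, a γ-secretase subunit (105 and 98.1 RPKM), and so did all 8 other genes of the nuclear complex and all 11 corepressor genes, among them the deacetylase Hdac1 (244.5 and 244.6 RPKM). The 9 other measured genes of endocytosis and turnover also lay within 1.5-fold, the highest being the ubiquitin ligase Cbl (80.1 and 106 RPKM).

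Lfng was the exception among the 5 genes that glycosylate Notch. It encodes Lunatic Fringe, a glycosyltransferase that makes Notch1 more responsive to Delta-like ligands. Lfng was at 22.7 RPKM in WT thymus and 1.98-fold lower, at 11.5 RPKM, in Tg thymus (interval of the ratio 0.447 to 0.571; 752 and 403 fragments). It was at 157% of the Notch1 level in WT against 54.7% in Tg thymus, a change of 0.349 (0.305 to 0.40). Its relatives Mfng and Rfng stood within 1.5-fold, Mfng at 20.4 RPKM in WT and 17.4 RPKM in Tg, Rfng at 13.6 and 15.8 RPKM.

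Among other genes that Notch regulates in early T cells, 8 were measured beside those above, of which Hes5 and Il7r were past 1.5-fold lower and the other 6 within that limit. Hes5, a repressor related to Hes1, stood at 1.62 and 0.765 RPKM on 30 and 15 fragments. Hey1, a related repressor under 1 RPKM, had 21 WT fragments and 3 Tg fragments (ratio 0.135, 0.0257 to 0.451). Il7r, which is also a gene of mature T cells, stood at 51.9 and 21.7 RPKM. The T cell factor Tcf7 had a ratio of 1.34 (1020 and 1370 RPKM) and Il2ra, the CD25 marker of DN2 and DN3 cells, a ratio of 1.27 (7.56 and 9.56 RPKM; 1.12 to 1.43). Relative to Notch1, Il2ra went from 52.2% to 45.6%. Of the pre-TCR complex and its signal chain, Ptcra was 1 of 21 genes and the 20 others were all inside 1.5-fold (median log2(Tg/WT) of 0.11). The CD3 chain gene Cd3g came nearest to the limit, at 1023 and 692 RPKM. The recombinase genes Rag1 and Rag2, which DN3 and DP cells share, had ratios of 1.24 and 1.14. All 9 genes of the DN4 and immature single-positive stages lay within 1.5-fold.

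**Figure D4:**
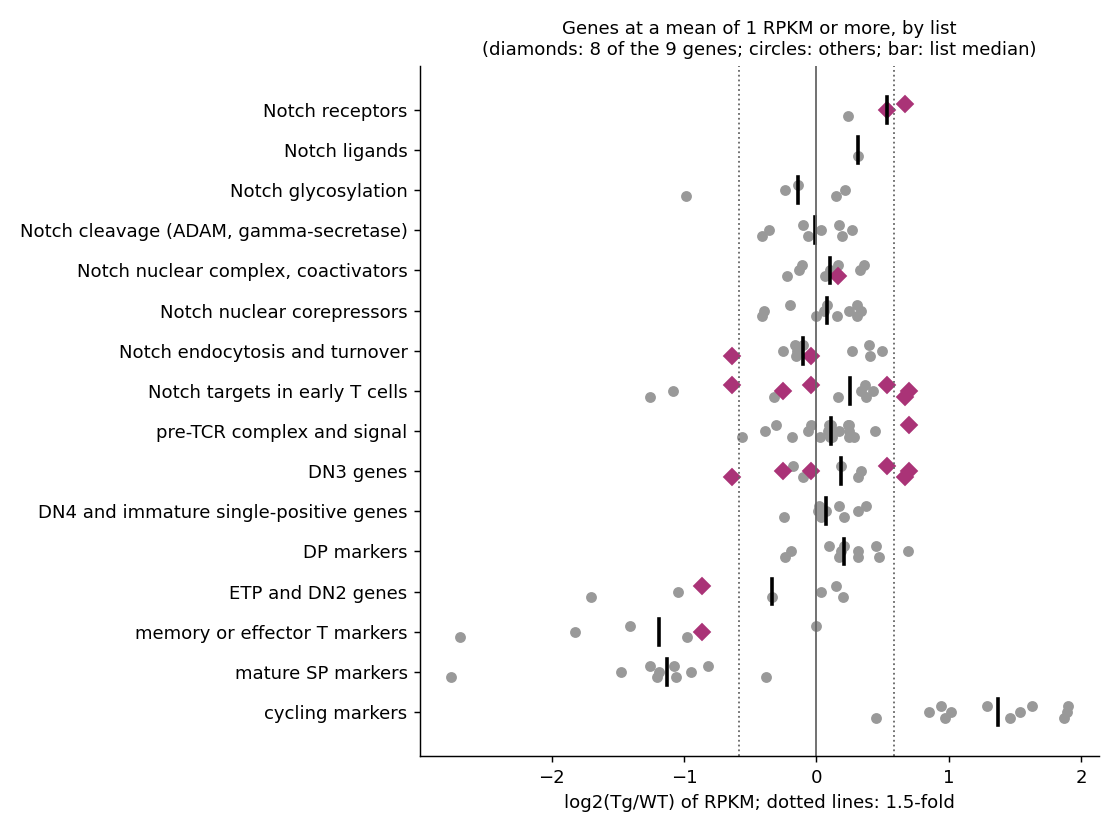
log2(Tg/WT) of measured genes (average of at least 1 RPKM), by list; diamonds are the 8 measured genes of the 9, circles other genes, bars list medians and dotted lines 1.5-fold. Most Notch pathway and pre-TCR genes lie between the dotted lines, 9 of 10 mature T cell genes lie to the left of them, and 11 of 12 cycling genes lie to the right.

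Genes of dividing cells differed in the same direction as Notch1, Notch3 and Ptcra. Of 12 cycling markers 11 were past 1.5-fold higher in Tg thymus, with sums of 766 and 1535 RPKM, and Mki67 stood at 42.8 and 118 RPKM. Pcna, the remaining one, had a ratio of 1.37. Against Mki67 these 3 genes stood lower in the Tg library, Notch1 at 33.8% of the Mki67 level in WT against 17.8% in Tg thymus, Notch3 at 11.1% and 6.42%, and Ptcra at 24.9% and 14.7%. Against Rag1, which has a ratio of 1.24, they stood higher, with changes of 1.16 (1.10 to 1.23) for Notch1, 1.28 (1.15 to 1.42) for Notch3 and 1.30 (1.09 to 1.56) for Ptcra. Rag1 is 1 of 11 DP markers, of which Arpp21 was past 1.5-fold higher (ratio 1.62, as for Ptcra) and 10 lay between, Dntt with a ratio of 1.39, so the order against DP markers depends on the marker taken. The part of dividing cells in these values was not tested.

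Vessels and stroma also express Notch receptors. Of 6 endothelial markers all but Pecam1, which leukocytes share, were under 1 RPKM, and Emcn had no fragments in either library. Of those under 1 RPKM, only Cdh5 had an interval that left out 1 (12 WT fragments and 1 Tg fragment, ratio 0.0786, 0.00184 to 0.531). The pericyte list without Notch3 held 2 measured genes, both within 1.5-fold, and Cspg4 had no fragments. Among its genes under 1 RPKM, only Rgs5 had an interval that left out 1 (14 WT and 4 Tg fragments, ratio 0.269, 0.0646 to 0.858). No fibroblast marker averaged 1 RPKM, and these markers did not share one direction. The collagen gene Col1a2 was at 1.22 RPKM in WT against 0.114 RPKM in Tg thymus (91 and 9 fragments, ratio 0.0933, 0.0413 to 0.185). Its partner Col1a1 was higher in Tg thymus (3 and 12 fragments, ratio 3.77, 1.02 to 20.8). The intervals of the remaining fibroblast markers included 1. Thymic epithelium markers summed to 15.0 RPKM in WT and 15.1 RPKM in Tg thymus, and of the 5 measured 1 was past 1.5-fold lower. The part of vessels and stroma in the receptor values was not tested.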

How the data were processed

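Polyadenylated RNA of pooled thymuses was sequenced on an Illumina HiSeq (1 library per genotype). The authors mapped the reads with a program spelled HotHap2 in their methods, kept uniquely mapped reads and deposited RPKM values for 30533 RefSeq transcripts, while their text describes a unit based on fragments. The submitters' notes name mm10. Neither the program's version nor a strand setting is stated in the paper or labels.

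Gene symbols came from RefSeq (GRCm38.p6; 30003 transcripts) and GENCODE M21 (185 more). Whole reads were recovered for 99.99% of transcripts (relative tolerance 1e-09). Reads came in pairs and were counted as fragments. For 13 of the 18 transcripts described, the length implied by the reads lay within 20% of that in GENCODE. Recovery and intervals were tested on simulated data. Level ratios between genes were computed for 21 pairs, of which 1 is not reported here. No count test was used, since it would compare 2 libraries and not the genotypes.

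The members, lists and tests were chosen with earlier results of these data known, and the promoter letters and gene pairs after the ratios were seen. The rule for named genes was the 9 members and, of each list, measured genes past 1.5-fold and the 3 most abundant. Not all of these are named. Aqp11, Dntt, Cd3e, Cd247, Il2ra, Dll4, Hey1, Fcer1a, Tpsb2, Emcn, Cspg4 and Rgs5 fall outside the rule and were chosen after their values were seen. Col1a1, Col1a2, Cdh5, Jag1 and Mcpt4 are under 1 RPKM but among the 3 most abundant of their lists. They too were named after their values were seen. Alternatives were median, upper quartile and sum scaling, pseudocounts of 1 and 0.1 RPKM, a minimum mean of 5 RPKM or none, sums or means of transcripts, subtraction of a running median over length (401 genes), and limits of 2-fold and 1.25-fold. Python 3.11.15, numpy 2.4.6, pandas 2.3.3, scipy 1.17.1 and matplotlib 3.10.9 were used.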

Additional observations from a re-analysis of the deposited data

How the results depend on the processing

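Notch3 and Ptcra were the higher genes under median centring, upper quartile scaling, a pseudocount of 0.1 RPKM, no minimum, sums or means of transcripts and subtraction of the length trend. With both libraries rescaled to the same RPKM sum Notch1 joined them (log2 of 0.65) and Dtx1 was no longer lower, which left 1 lower gene. With a pseudocount of 1 RPKM, 1 gene was higher (Ptcra) and 0 were lower. With a minimum mean of 5 RPKM, only Notch1, Notch3 and Ptcra were counted, so 0 were lower and the median log2 was 0.67. With sums or means of transcripts Cd44 was no longer lower (log2 of -0.39), which left 1 lower gene. At 2-fold, 0 genes were higher and 0 lower. Over 8 settings that recompute the ratios, each ratio kept its sign except that of Nrarp, which turned to 0.08 under the sum scaling. The length trend took Notch1 to a log2 of 0.45. Hes1, Nrarp and Kit rest on under 70 fragments a library, and 1 library per genotype gives no measure of the spread between animals.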
